A study of Mus musculus with 3 samples.

Results

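Prdm1, Prdm14, Tfap2c, Dppa3 and Kit, a set of genes known for their roles in making and maintaining primordial germ cells, were examined for H3K4me3 and H3K27me3. They were chosen by name, and for each gene the called regions of both marks that shared at least 1 bp with a fixed window on mouse build mm9 were taken. The windows lay on chromosome 10 (44140001 to 44200000) for Prdm1, chromosome 1 (13090001 to 13130000) for Prdm14, chromosome 2 (172360001 to 172400000) for Tfap2c, chromosome 6 (122570001 to 122590000) for Dppa3 and chromosome 5 (75960001 to 76060000) for Kit. They held 26 of the 47928 H3K4me3 regions of the series and 0 of the 18731 H3K27me3 regions.

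The regions come from chromatin immunoprecipitation and sequencing of germ cells at E11.5. Embryos carried an Oct4:GFP transgene on a B6 background crossed to Swiss-Webster, gonadal regions of several embryos were pooled, and GFP-positive cells were sorted; chromatin of 2 aliquots, of 104000 and 97000 cells, was used for the H3K4me3 sample, the H3K27me3 sample and the input, which was not analysed here. There is 1 list of regions per mark, so no value below has an error between replicates or a test. The lists carry no read counts, so the depth behind a region is unknown, and a window without a called region is not shown to lack the mark. No RNA was measured, and the markers of other cell types that the GFP gate could hold were not analysed here.

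Specification of mouse germ cells begins in the epiblast, where signals of the BMP family switch on Prdm1 and Prdm14. Prdm1 encodes the transcriptional repressor BLIMP1, Prdm14 a second PR-domain protein, and Tfap2c the transcription factor AP-2 gamma; these regulators repress the somatic programme and restore features of pluripotency. Dppa3, also called Stella, is a marker of newly specified germ cells and a maternal factor of the early embryo. Kit is the receptor tyrosine kinase for the stem cell factor Kitl and acts in the survival and migration of germ cells rather than in their specification. H3K4me3 is typical of active and CpG-rich promoters, H3K27me3 is deposited by Polycomb at silenced genes, and chromatin that carries both is called bivalent.

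Promoter sequences were looked up in RefSeq (build GRCm38.p6) to describe their CpG content, which was not compared with the H3K4me3 regions. Entries existed for 2 of the 5 genes, Prdm1 and Kit. The sequences below are the 250 bases upstream of the annotated start, 5′ to 3′ on the gene's strand, with each CpG in capitals. The first lies at chr10:44458749-44458998 on the minus strand and the second at chr5:75574737-75574986 on the plus strand, both in GRCm38 coordinates, which cannot be compared with the mm9 windows.
Prdm1: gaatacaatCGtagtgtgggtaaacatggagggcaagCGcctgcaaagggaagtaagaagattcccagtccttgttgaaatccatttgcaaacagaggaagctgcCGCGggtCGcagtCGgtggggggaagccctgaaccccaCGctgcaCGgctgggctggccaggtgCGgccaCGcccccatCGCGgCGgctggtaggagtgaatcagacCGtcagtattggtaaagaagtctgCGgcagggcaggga
Kit: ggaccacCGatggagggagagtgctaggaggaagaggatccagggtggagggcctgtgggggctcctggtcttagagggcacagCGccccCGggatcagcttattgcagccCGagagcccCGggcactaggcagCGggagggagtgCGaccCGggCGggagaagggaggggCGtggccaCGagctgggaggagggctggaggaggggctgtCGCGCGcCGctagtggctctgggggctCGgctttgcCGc

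The Prdm1 sequence held 15 CpG dinucleotides in 250 bases, with 59.2% G or C and an observed-to-expected CpG ratio of 0.71. The Kit sequence held 17 CpGs, with 70.8% G or C and a ratio of 0.60. A second Kit entry shifted by a few bases held 18. Over the 32851 promoter entries of the table the median was 6 CpGs (quartiles 2 and 16), the median G or C content 52.4% and the median ratio 0.374. At least as many CpGs as in the Prdm1 sequence were present in 27.3% of entries, and at least as many as in the first Kit sequence in 23.5%. Both were thus above the median of the table. The motif GGGCGG, the GC box, searched on both strands, occurred 1 time in the Kit sequence and 0 times in the Prdm1 sequence, and at least 1 time in 32.7% of entries. The Kit match contains a CpG that is also counted above.

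All 5 windows carried H3K4me3 alone. No window held both marks, H3K27me3 alone or neither mark. H3K4me3 covered 34.0 kb of the 260.0 kb in the 5 windows, or 13.1%, and H3K27me3 covered 0%. As a background, every mm9 chromosome was divided end to end into windows of the same size. H3K4me3 alone was the class of 26.9% of all windows of 60 kb, 23.7% of those of 40 kb, 17.3% of those of 20 kb and 29.9% of those of 100 kb. Windows with both marks made up 15.7%, 11.3%, 6.22% and 22.9% at the same sizes, windows with H3K27me3 alone 3.27%, 3.58%, 3.67% and 2.86%, and windows with neither mark 54.1%, 61.5%, 72.8% and 44.3%. These shares include assembly gaps.

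A closer background is the set of windows that share at least 1 bp with an H3K4me3 region of at least 3.2 kb. That limit is the width of the narrowest of the members' widest regions. A region that crosses an edge counts in each window it touches, whereas the members' wide regions lie wholly inside their windows. Among these background windows, H3K4me3 alone was the class of 60.9% of 1859 windows of 60 kb, the size used for Prdm1. The share was 66.6% of 1957 windows of 40 kb (Prdm14 and Tfap2c), 75.1% of 2220 windows of 20 kb (Dppa3) and 50.6% of 1715 windows of 100 kb (Kit). Absence of a called H3K27me3 region was therefore the commoner state around wide H3K4me3 regions in general, and a count of 5 of 5 windows does not set these genes apart. The 3.2 kb limit was taken from the members after their widths were seen.

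**Figure D1:**
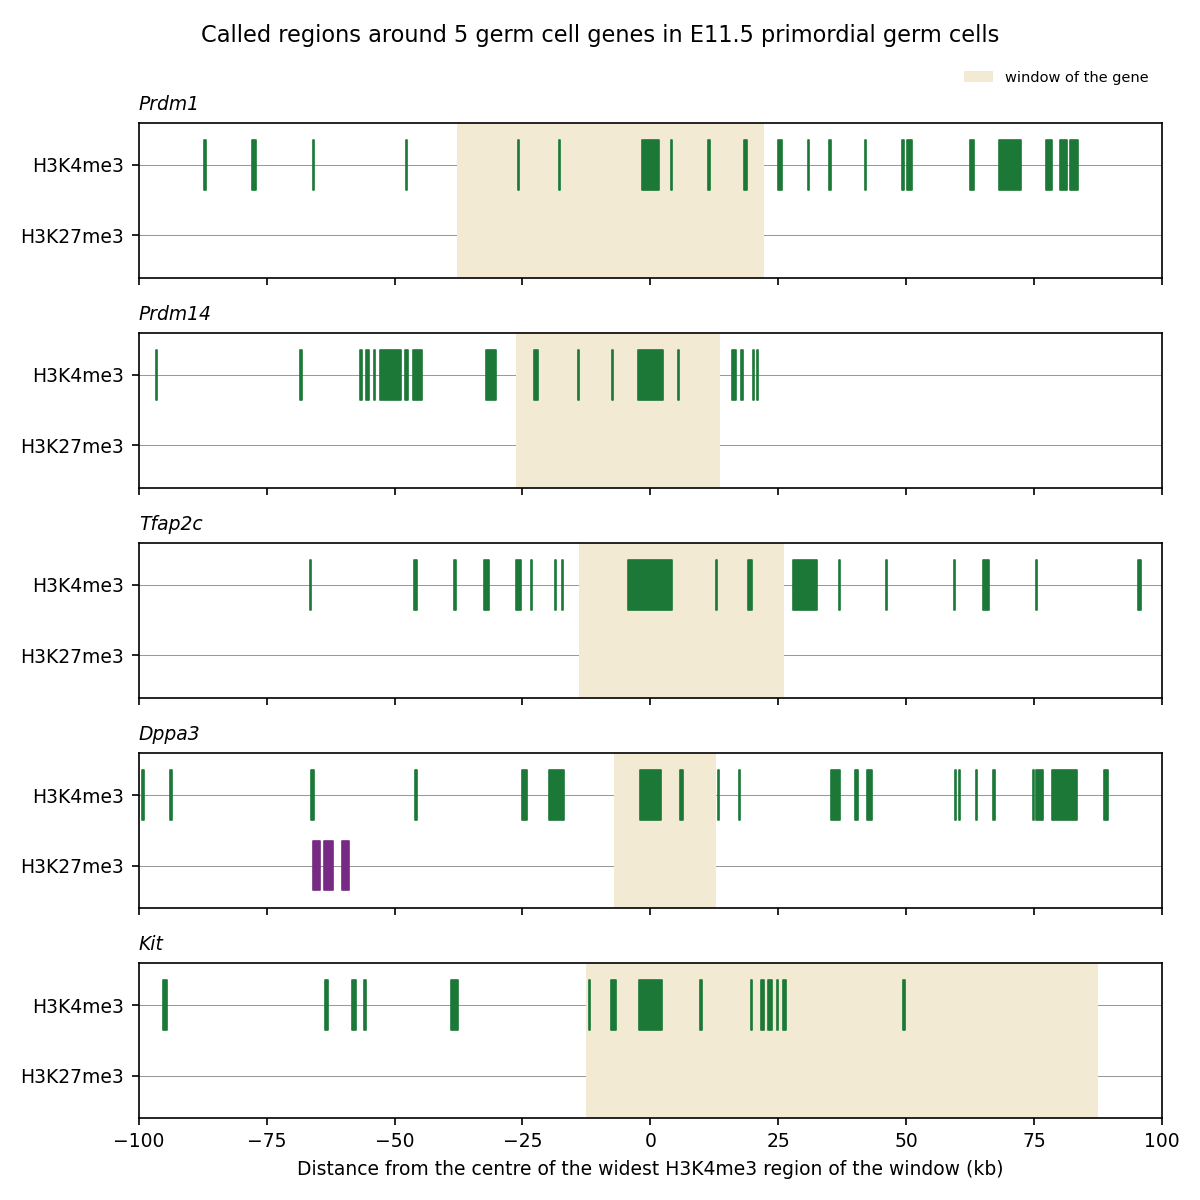
Called regions within 100 kb of the centre of the widest H3K4me3 region in each of the 5 windows (shaded), with H3K4me3 as green bars and H3K27me3 as purple bars against distance in kb. Each window holds 1 wide H3K4me3 region and between 1 and 9 narrow ones, none holds H3K27me3, and the only H3K27me3 regions drawn are 3 beside the Dppa3 window.

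Each window held 1 H3K4me3 region far wider than the rest of that window. These widest regions made up 25.4 kb of the 34.0 kb of H3K4me3, or 74.7%. The other 21 regions were at most 1000 bp wide, with a median of 200 bp, and 11 of the 26 regions (42.3%) were a single 200-bp step of the ChromHMM segmentation, against 25.7% of the whole list. In the whole H3K4me3 list the median width was 800 bp and the 95th and 99th percentiles were 3000 and 4600 bp. All 5 widest regions therefore exceeded the 95th percentile. That percentile ranks single regions, not the widest region of a window. Among background windows with H3K4me3, a region of at least 3.2 kb was met in 1859 of 18843 windows of 60 kb and 1957 of 23182 of 40 kb. It was met in 2220 of 31224 windows of 20 kb and 1715 of 14014 of 100 kb. No region crossed the edge of its window. Any window with several regions has a widest one, so these widths are given as a description.

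Tfap2c carried the widest of them, at 8.6 kb (chromosome 2, 172369601 to 172378200). Only 38 regions of the list, or 0.0793%, were at least as wide, this one included. It held 89.6% of the H3K4me3 in its window and covered 21.5% of the window itself. The window held a further 2 regions, of 200 and 800 bp, at 8.6 and 14.8 kb from the wide region, both at higher coordinates. Within this window Tfap2c was thus marked almost wholly by 1 block, 10.8 times as wide as the next region. The share and the ratio depend on where the window ends. A region of 4.6 kb lay 1.8 kb beyond its upper edge, and with 10 kb more on each side the window held 7 regions.

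Prdm14 had a 5.0 kb region (chromosome 1, 13113801 to 13118800), matched or exceeded by 0.795% of the list. The remaining 4 regions of the window measured 800, 200, 200 and 200 bp, and 3 of them lay at lower coordinates. The wide region held 78.1% of the H3K4me3 in the window.

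The widest region at Prdm1 measured 3.2 kb (chromosome 10, 44176201 to 44179400), the narrowest of the 5, and 4.08% of the list was at least as wide. Its window held another 5 regions of 200 to 600 bp on both sides, between 2.4 and 24.0 kb away. They brought the share of the wide region down to 66.7% of the H3K4me3 in the window. The RefSeq gene of build GRCm38 spans 91.4 kb, predicted transcripts included, so a window of 60 kb cannot hold all of it. Beyond the window, 46.0 kb from its upper edge, lay a wider H3K4me3 region of 4.2 kb (chromosome 10, 44246001 to 44250200). Which transcript or neighbouring gene it belongs to cannot be told without an mm9 annotation.

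Dppa3, with a RefSeq gene of 3.85 kb and the smallest window, held 2 H3K4me3 regions. The wide one measured 4.0 kb (chromosome 6, 122575201 to 122579200) and was matched or exceeded by 1.79% of the list. The other measured 600 bp and lay 3.8 kb away. The wide region covered 20.0% of the window and held 87.0% of its H3K4me3.

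Kit held the most regions, with many small ones beside the wide one. Its window was also the largest, at 100 kb, which bears on the count and on the share of the wide region. Prdm1 held 6 regions in 60 kb and Prdm14 5 in 40 kb, so regions were no denser at Kit than at these genes. At Kit the wide region measured 4.6 kb (chromosome 5, 75970201 to 75974800), at the 99th percentile of the list. It held 53.5% of the H3K4me3 in the window, the lowest share of the 5 genes. The other 9 regions measured 200 to 1000 bp. Of these, 2 lay at lower coordinates, including the 1000-bp region 4.4 kb away. The remaining 7 lay at higher coordinates, the direction in which RefSeq (build GRCm38) transcribes Kit. A group of 5 stood 17.4 to 23.6 kb from the wide region, with widths of 200, 600, 600, 200 and 600 bp. A single 200-bp region followed at 47.2 kb, and the last part of the window, to its end 85.2 kb from the wide region, carried no other call. The RefSeq gene spans 81.7 kb.

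**Figure D2:**
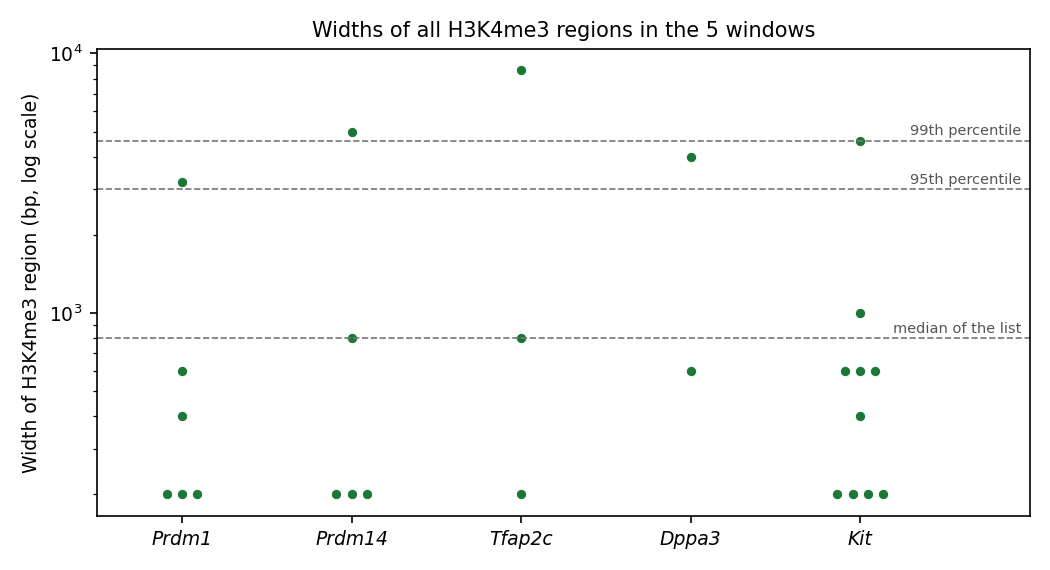
Width in bp, on a log scale, of each of the 26 H3K4me3 regions by gene; dashed lines mark the median and the 95th and 99th percentiles of all 47928 H3K4me3 regions. In every window 1 region lies above the 95th percentile and all others are at or below 1000 bp.

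H3K4me3 covered 8.0% of the Prdm1 window, 16.0% of the Prdm14 window, 24.0% of the Tfap2c window, 23.0% of the Dppa3 window and 8.6% of the Kit window. Same-size windows with at least 1 H3K4me3 region had median coverages of 3.0% at 60 kb, 4.0% at 40 kb, 6.0% at 20 kb and 2.4% at 100 kb. Each gene therefore lay above the median for its size. Coverage as high or higher was found in 1.58% of such windows for Tfap2c, 5.33% for Dppa3, 5.34% for Prdm14, 9.46% for Kit and 15.9% for Prdm1. The Dppa3 value depends on its small window: with 10 kb more on each side its coverage was 13.5%. The windows were placed on genes and the background windows were not, and how windows on other genes compare was not tested.

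Regions were also counted. Kit held 10 regions and Prdm1 6, against a median of 2 in background windows of either size that hold H3K4me3. As many or more regions were present in 5.64% of such windows of 100 kb and 9.74% of those of 60 kb. Prdm14 held 5 regions, a number met by 8.55% of windows of 40 kb. Tfap2c with 3 and Dppa3 with 2 were met by 26.8% and 36.4% of windows of their sizes. Raw counts are over windows of different sizes, and relative to windows of its own size Prdm14 ranked ahead of Prdm1. Among regions wider than 400 bp, Kit held 5 regions and the other 4 genes 2 each. The counts also depend on the window edges. With 10 kb more on each side they were 10 at Kit, 10 at Prdm14, 9 at Prdm1, 7 at Tfap2c and 5 at Dppa3.

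**Figure D3:**
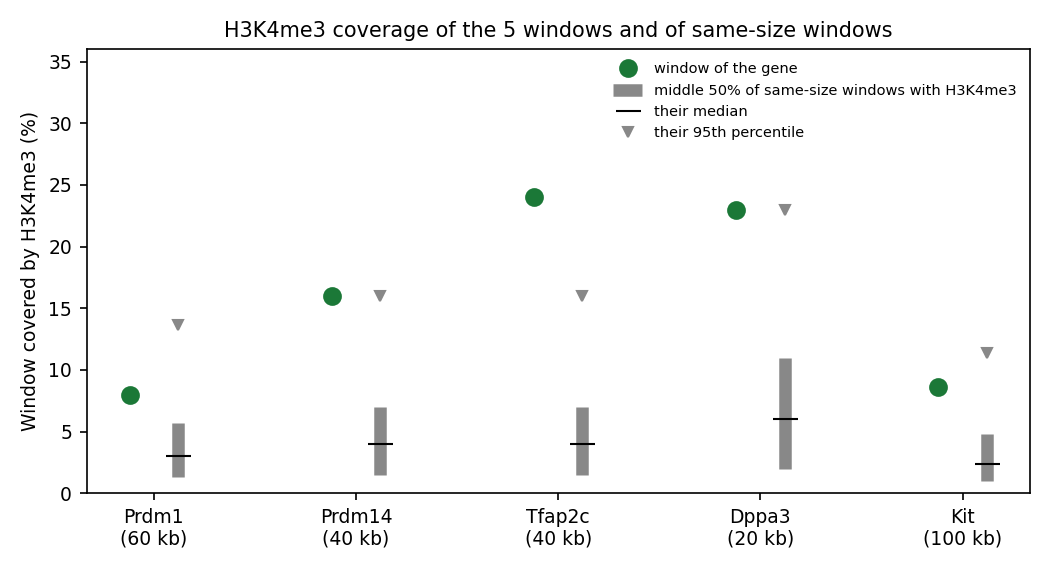
Share of each gene's window covered by H3K4me3, in percent (green points), beside windows of the same size across the genome that hold H3K4me3 (grey bar, middle 50%; black line, median; triangle, 95th percentile). Tfap2c at 24.0% lies above the 95th percentile of 16.0%, Prdm14 and Dppa3 lie at it, and Prdm1 and Kit lie below it.

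The distance to the nearest H3K27me3 differed widely between the genes. That distance from the wide H3K4me3 region, edge to edge, was 1176 kb for Prdm14, 379.2 kb for Kit, 139.4 kb for Prdm1, 124.8 kb for Tfap2c and 57.0 kb for Dppa3. At Kit and Prdm1 it ended at a single 200-bp step of H3K27me3. Distances were not recomputed without such narrow regions or under any other alternative. The median distance was 139.4 kb for the 5 members, against 46.9 kb for the 1954 H3K4me3 regions of at least 3.2 kb (quartiles 7.6 and 136.2 kb) and 46.6 kb for all H3K4me3 regions. All 5 members exceeded both medians. Since none of the 5 windows held H3K27me3, this partly restates their class, whereas both comparison sets include regions that overlap H3K27me3. Of the H3K4me3 regions of at least 3.2 kb, 384 (19.7%) overlapped H3K27me3, a share close to the 18.8% of all H3K4me3 regions. A distance of 57.0 kb or more was found for 45.1% of the regions of at least 3.2 kb. Distances like those of Dppa3, Tfap2c and Prdm1 were thus common, being reached by 45.1%, 26.9% and 24.3% of these regions. Distances as long as those of Kit and Prdm14 were reached by 6.29% and 1.13%.

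Prdm14 lay in a stretch of 3309.6 kb of chromosome 1 with no called H3K27me3, between regions at 10983401 to 10985200 and 14294801 to 14295600. The stretch was not empty of H3K4me3, of which it held 55 regions. On chromosome 1 as a whole, 4.00% of H3K4me3 regions were as far or farther from H3K27me3. Whether sequence that reads cannot be mapped to contributes to this stretch was not tested.

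Kit lay in a free stretch of 776.6 kb with 30 H3K4me3 regions. H3K27me3 covered 5.31% of chromosome 5, the highest of the 5 chromosomes concerned, and how evenly it is spread along chromosome 5 was not tested. The median distance on that chromosome was 36.7 kb, and 4.02% of its H3K4me3 regions lay as far from H3K27me3 as the wide Kit region or farther. RefSeq places the receptor genes Pdgfra and Kdr next to Kit on either side. The called H3K27me3 regions that bound the stretch measured 200 bp below Kit (75590801 to 75591000) and 1000 bp above it (76367601 to 76368600), and were not assigned to any gene.

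Prdm1 and Tfap2c lay in stretches of 594.0 and 308.2 kb free of H3K27me3, with 30 and 21 H3K4me3 regions. The H3K27me3 region nearest to Prdm1 was a single 200-bp step on chromosome 10 (44318801 to 44319000) that overlapped H3K4me3. The one nearest to Tfap2c measured 1.2 kb (chromosome 2, 172243601 to 172244800) and did not.

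Dppa3 was the gene with H3K27me3 closest by. A group of 3 H3K27me3 regions stood below its window on chromosome 6, of 1.4 kb (122511201 to 122512600), 1.8 kb (122513401 to 122515200) and 1.2 kb (122517001 to 122518200). The nearest ended 51.8 kb from the window. Of the 3, the farthest overlapped H3K4me3 and the other 2 did not. RefSeq lists Gdf3 and Nanog, the pluripotency factor, as the protein-coding neighbours of Dppa3. On the same chromosome 54.1% of H3K4me3 regions lay at least as far from H3K27me3 as the wide Dppa3 region.

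**Figure D4:**
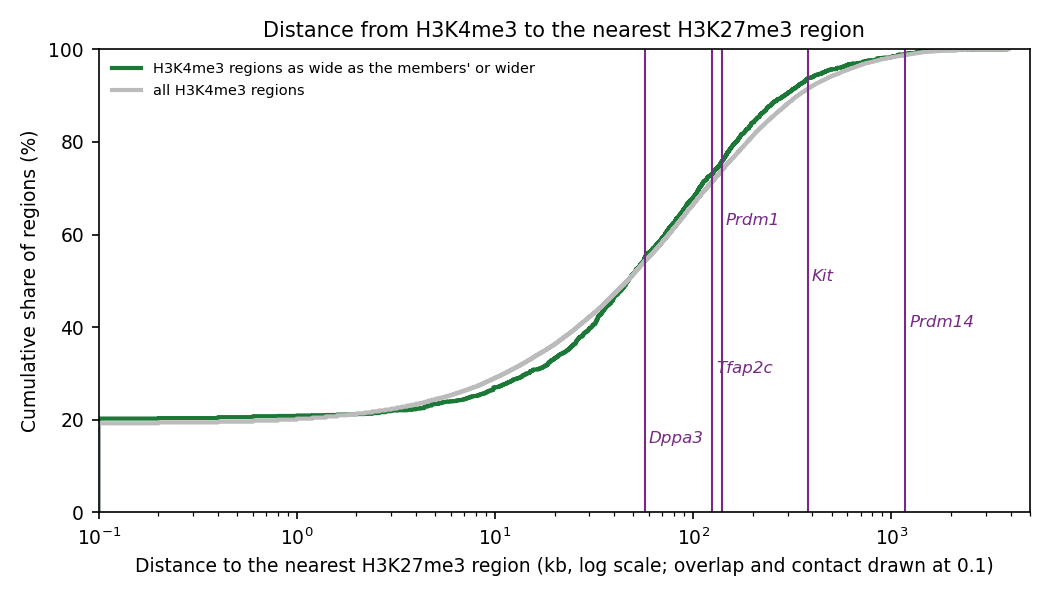
Cumulative share, in percent, of H3K4me3 regions by distance to the nearest H3K27me3 region in kb on a log scale, for the 1954 regions of at least 3.2 kb (green) and all regions (grey); purple lines mark the wide region of each gene. The 5 lines run from 57.0 kb for Dppa3 to 1176 kb for Prdm14, all right of both medians.

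Further H3K4me3 regions stood just outside several windows. The nearest H3K4me3 region beyond an edge was 0.4 kb away at Dppa3 (200 bp wide), 1.8 kb at Tfap2c (4.6 kb wide, 172401801 to 172406400), 2.2 kb at Prdm14 (800 bp), 2.8 kb at Prdm1 (800 bp) and 25.2 kb at Kit (1200 bp). The 4.6 kb region beside the Tfap2c window was as wide as the widest region at Kit. Further out, H3K4me3 regions of 4.2 kb and 4.8 kb lay 22.4 kb from the Prdm14 window and 65.8 kb from the Dppa3 window, and within 100 kb of the centre of the wide Kit region no other region reached 3.2 kb. These wide neighbours lay within the stretches around the genes that are free of called H3K27me3, so none of them could overlap it. Of all H3K4me3 regions of at least 3.2 kb, 19.7% overlapped H3K27me3.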

How the data were processed

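Bowtie 0.12.7 and mm9 are named in the submitters' processing notes. The deposited files hold 1 list of contiguous ChromHMM regions for each mark, per the file names, with chromosome, start, end and name and no count, score or p-value. All positions lie on a 200-bp grid. ChromHMM settings, use of the input and the combination of the 2 replicates were not given in the sources used here.

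Windows came from the gene list given above, and a region belonged to a window when they shared at least 1 bp. Coordinates count from 1. Members and lists were chosen with earlier results of these data known. All 5 genes are named, by rule, with every region in their windows. Background windows were laid end to end on mm9 chromosome lengths (GenomeInfoDb 1.38.1), the mitochondrial genome excepted. Gene names, neighbours, gene lengths and promoters came from RefSeq tables of build GRCm38, and no coordinate of that build was joined to a region. Other germ cell genes and the markers of other cell types would need an mm9 annotation and were not analysed here. With 1 list per mark no test was made and depth is unknown. Alternatives are given in the closing section. Python 3.11.15, numpy 2.4.6 and pandas 2.3.3 were used.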

Additional observations from a re-analysis of the deposited data

How the results depend on the processing

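Of 187 values under alternatives for 31 results, 87 were 0 under the alternative and as reported, which says nothing of stability. Of the other 100, 77 stayed within 1.5 times the reported value and 23 moved by more or changed a class. The 77 include values that could not move, so they overstate stability. Among these are the widest H3K4me3 widths with narrow regions dropped, with 400 bp asked for inside, or with windows narrowed by 10%. The class when both marks had to share at least 200 bp could not move either, nor under the settings named next. Dropping narrow regions, joining neighbours, asking for 400 bp inside the window or narrowing it by 10% could not change its class, since no window held H3K27me3 and each held a wide H3K4me3 region; with 10 kb more on each side all 5 still had H3K4me3 alone. Widening by 10 kb took the H3K4me3 coverage of Dppa3 to 13.5%. It also took the number of H3K4me3 regions to 10 at Prdm14, 7 at Tfap2c and 5 at Dppa3. Windows widened by 100 kb on each side, chosen after seeing the data, left 4 with H3K4me3 alone: Dppa3 then held both marks, with H3K27me3 coverage of 2.0%, a widest H3K27me3 region of 1800 bp and 200 bp under both marks. H3K4me3 coverage became 7.83% at Prdm14, 10.5% at Tfap2c, 10.6% at Dppa3 and 4.4% at Kit, since more sequence enters by construction. Without regions of 400 bp or less, Kit kept 5 of 10 regions, Prdm1 2 of 6 and Prdm14 2 of 5. No paired analysis was possible because each mark has 1 list, so replicates could not be left out either. The limit that depth set on the calls is unknown, as the lists hold no reads.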
